A study of Homo sapiens with 5 samples.

Results

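The genes examined here act when human cells license and fire DNA replication origins: ORC1 and ORC6 of the origin recognition complex, the licensing factors CDC6 and CDT1, the CDT1 inhibitor gene GMNN, and CDC45 and GINS1 to GINS4 of the replicative helicase. They were chosen by name as 10 genes, and all 10 were measured, among 18239 genes in all, by 20 of the 49386 probe sets of the array. Each value is the median of the probe sets that name only that gene; 5 of the genes had 1 probe set and 5 had several. The cells were GFP-SAS, a human squamous cell carcinoma line of the tongue that carries green fluorescent protein. They were exposed for 24 h to siAURKA-1 or siAURKA-2 (10 nM each, siRNAs against the mRNA of Aurora kinase A), to the non-targeting siRNA siNT, to 100 nM MLN8237 (alisertib, an Aurora A kinase inhibitor) or to DMSO vehicle. Each of the 5 groups was 1 array, so differences have no replicate check and are given without tests.

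At licensing, the origin recognition complex marks origins on chromatin, and CDC6 and CDT1 load the ring-shaped MCM helicase there before S phase. During S phase, CDC45 and the GINS complex bind MCM to form the active helicase that unwinds DNA, while geminin, the product of GMNN, holds CDT1 back so that origins are not licensed again. In cultured cells many of these genes are transcribed around the entry to S phase under E2F transcription factors, and several of their proteins are destroyed at set points of the cycle. Arrays on a mixed culture therefore cannot tell fewer cells in S phase from less of an RNA in each cell.

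Promoter windows are shown because the genes were lower together on the AURKA siRNA arrays and because E2F-type sites are a well known feature of such promoters. RefSeq windows on GRCh38.p14, each running from 250 bases before to 50 bases after an annotated start, were found for all the genes except GINS4, with 3 overlapping or neighbouring windows for CDC45 and 2 for GMNN. The E2F-type words searched on both strands were TTGGCGC, the variant TTCGCGC, the variant TTCCCGC and the variant TTGCCGC. At least 1 of them stood in 7 of 12 windows, and in 13.0% of the 35116 windows of all genes. These 7 windows belonged to ORC1, CDC6, CDT1, GMNN, GINS1, GINS2 and GINS3. The CCAAT box on either strand stood in 8 of the 12 and in 34.6% of all windows, and the CHR-type word TTTGAA or its variant TTCGAA in 0 of the 12 and in 16.4% of all. Overlapping windows of CDC45 are among the 8 and share CCAAT boxes, so the 8 windows are not 8 genes. A matching word is a description of the letters and not a shown binding site. Whether the words bear on the differences between arrays was not tested. The 6 windows below are those of the gene furthest below DMSO with MLN8237 (ORC1), of a licensing factor lower with both siRNAs (CDC6), and of genes on which the siRNAs differed (GMNN, CDC45, GINS1 and GINS2). Neither the 3 CDC45 windows, of which 1 is shown, nor the window of ORC6 held any of the E2F-type words. Other forms of the site were not searched, so a window without these words is not shown to lack an E2F-type site. The windows read 5′ to 3′ on the strand of the gene, with the E2F-type words of either strand in capitals. In ORC1 a pair of words on opposite strands overlap, at -22 and -19 from the start, and the first of them also overlaps a CCAAT box of the opposite strand at -23.
ORC1, chr1:52404374-52404673, minus strand: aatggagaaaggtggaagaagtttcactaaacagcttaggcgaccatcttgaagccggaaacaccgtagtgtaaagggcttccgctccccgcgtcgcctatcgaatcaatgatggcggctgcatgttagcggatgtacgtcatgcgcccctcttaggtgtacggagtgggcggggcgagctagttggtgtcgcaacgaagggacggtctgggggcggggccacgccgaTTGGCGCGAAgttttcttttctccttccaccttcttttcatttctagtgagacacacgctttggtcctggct
CDC6, chr17:40287629-40287928, plus strand: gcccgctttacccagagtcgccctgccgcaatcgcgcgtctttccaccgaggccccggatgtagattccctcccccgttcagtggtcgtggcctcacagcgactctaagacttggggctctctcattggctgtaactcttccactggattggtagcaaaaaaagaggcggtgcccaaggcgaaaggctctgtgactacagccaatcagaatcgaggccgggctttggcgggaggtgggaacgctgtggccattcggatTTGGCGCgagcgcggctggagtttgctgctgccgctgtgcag
GMNN, chr6:24775163-24775462, plus strand: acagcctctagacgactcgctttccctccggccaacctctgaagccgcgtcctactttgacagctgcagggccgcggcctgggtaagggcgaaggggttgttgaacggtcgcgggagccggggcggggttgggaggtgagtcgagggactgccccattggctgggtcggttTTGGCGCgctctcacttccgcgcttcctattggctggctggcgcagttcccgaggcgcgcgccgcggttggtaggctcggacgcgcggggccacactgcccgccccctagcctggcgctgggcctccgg
CDC45, chr22:19479670-19479969, plus strand: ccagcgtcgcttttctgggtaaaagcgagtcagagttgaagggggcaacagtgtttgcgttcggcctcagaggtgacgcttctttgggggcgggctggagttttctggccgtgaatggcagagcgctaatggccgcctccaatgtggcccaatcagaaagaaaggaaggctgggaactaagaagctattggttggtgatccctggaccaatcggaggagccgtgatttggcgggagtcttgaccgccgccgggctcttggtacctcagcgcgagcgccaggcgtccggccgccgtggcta
GINS1, chr20:25407423-25407722, plus strand: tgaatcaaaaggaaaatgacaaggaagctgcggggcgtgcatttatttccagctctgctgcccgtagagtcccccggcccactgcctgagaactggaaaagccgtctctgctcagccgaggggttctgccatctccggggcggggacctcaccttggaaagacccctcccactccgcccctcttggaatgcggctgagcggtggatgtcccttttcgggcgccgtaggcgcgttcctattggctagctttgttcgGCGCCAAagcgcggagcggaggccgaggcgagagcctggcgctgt
GINS2, chr16:85688905-85689204, minus strand: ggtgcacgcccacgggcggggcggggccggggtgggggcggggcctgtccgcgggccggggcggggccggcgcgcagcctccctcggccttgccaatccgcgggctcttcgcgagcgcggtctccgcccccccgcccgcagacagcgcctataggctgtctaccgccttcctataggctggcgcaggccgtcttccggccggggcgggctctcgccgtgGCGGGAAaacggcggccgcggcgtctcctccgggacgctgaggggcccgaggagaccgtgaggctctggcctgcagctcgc

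The knockdown was checked at its target before the replication genes were read. AURKA stood at -3.36 on the siAURKA-1 array, -2.64 on siAURKA-2 and 0 on siNT, and at 0.64 on MLN8237 and 0.15 on DMSO. These are centred log2 values: the authors' table sets the median of every probe set over the 5 arrays to 0, so a value compares arrays for 1 gene and says nothing of how abundant that gene is. For the same reason the labelled cell type cannot be checked by level. Of 6 squamous epithelial markers 4 were measured. With siAURKA-1 they differed from siNT by 0.32 (KRT5), 0.10 (KRT14), 0.04 (SFN) and -0.17 (DSG3), with a median of 0.07. With siAURKA-2 KRT5, a basal keratin, was at -1.82 and the others between -0.22 and -0.11, with a median of -0.21. All 4 were lower with MLN8237 than with DMSO, from -0.45 (KRT5) to -0.06 (KRT14), with a median of -0.27. For siNT minus DMSO they ranged from -0.19 (KRT5) to 0.62 (DSG3), with a median of 0.05. For siAURKA-1 minus siAURKA-2 the range was -0.06 (DSG3) to 2.13 (KRT5). The 17 measured markers of fibroblasts, leukocytes and endothelium differed by -0.16 to 0.13 in the 5 comparisons. The part of such shifts in the values that follow was not tested.

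Origin recognition came first in the order of action. ORC1, the subunit that comes and goes with the cycle, read -0.54 on the siAURKA-1 array, -0.35 on siAURKA-2 and 0.18 on siNT, and 0 on MLN8237 against 0.59 on DMSO. Both siAURKA arrays were therefore the lowest, and DMSO stood apart at the top. ORC6, a small subunit also needed for MCM loading, read -0.56 on the siAURKA-1 array, -0.42 on siAURKA-2 and 0.06 on siNT, and 0 on MLN8237 against 0.09 on DMSO. Here the 3 arrays without an AURKA siRNA lay close together. Each gene rests on 1 probe set.

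The loading factors behaved alike on the arrays with siAURKA-1 and apart on those with siAURKA-2. CDC6, the ATPase that joins the origin recognition complex for loading, read -0.89 on the siAURKA-1 array, -0.68 on siAURKA-2 and 0.003 on siNT, and 0.07 on MLN8237 against 0.33 on DMSO. CDT1, the partner that brings MCM, read -0.63 on the siAURKA-1 array, -0.13 on siAURKA-2 and 0.11 on siNT, and 0 on MLN8237 against 0.28 on DMSO. Thus CDC6 was well below siNT on both siAURKA arrays, whereas CDT1 was well below it on the siAURKA-1 array and nearer to it on the other. GMNN, which encodes the inhibitor of CDT1, read -0.82 on the siAURKA-1 array, 0 on siAURKA-2 and 0.16 on siNT, and -0.15 on MLN8237 against 0.15 on DMSO. It was the 1 gene of the 10 for which the siAURKA-2 array did not lie below all 3 arrays without an AURKA siRNA.

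The helicase cofactors held the lowest readings of the set. CDC45 read -1.22 on the siAURKA-1 array, -0.51 on siAURKA-2 and 0.04 on siNT, and 0 on MLN8237 against 0.39 on DMSO. GINS2 read -1.27 on the siAURKA-1 array, -0.40 on siAURKA-2 and 0 on siNT, and 0.15 on MLN8237 against 0.48 on DMSO. Both genes ran in the same order over the siRNA arrays, lowest with siAURKA-1, and were highest with DMSO. GINS3 read -1.16 on the siAURKA-1 array, -0.58 on siAURKA-2 and 0.07 on siNT, and 0 on MLN8237 against 0.29 on DMSO. GINS4 read -0.83 on the siAURKA-1 array, -0.49 on siAURKA-2 and 0.20 on siNT, and 0 on MLN8237 against 0.19 on DMSO. These GINS genes encode subunits of the same complex and shared the order of the 3 siRNA arrays. GINS1, a further subunit, read -0.12 on the siAURKA-1 array, -0.57 on siAURKA-2 and 0.28 on siNT, and 0 on MLN8237 against 0.05 on DMSO, so that for this gene alone of the 10 siAURKA-2 was the lowest array.

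**Figure D1:**
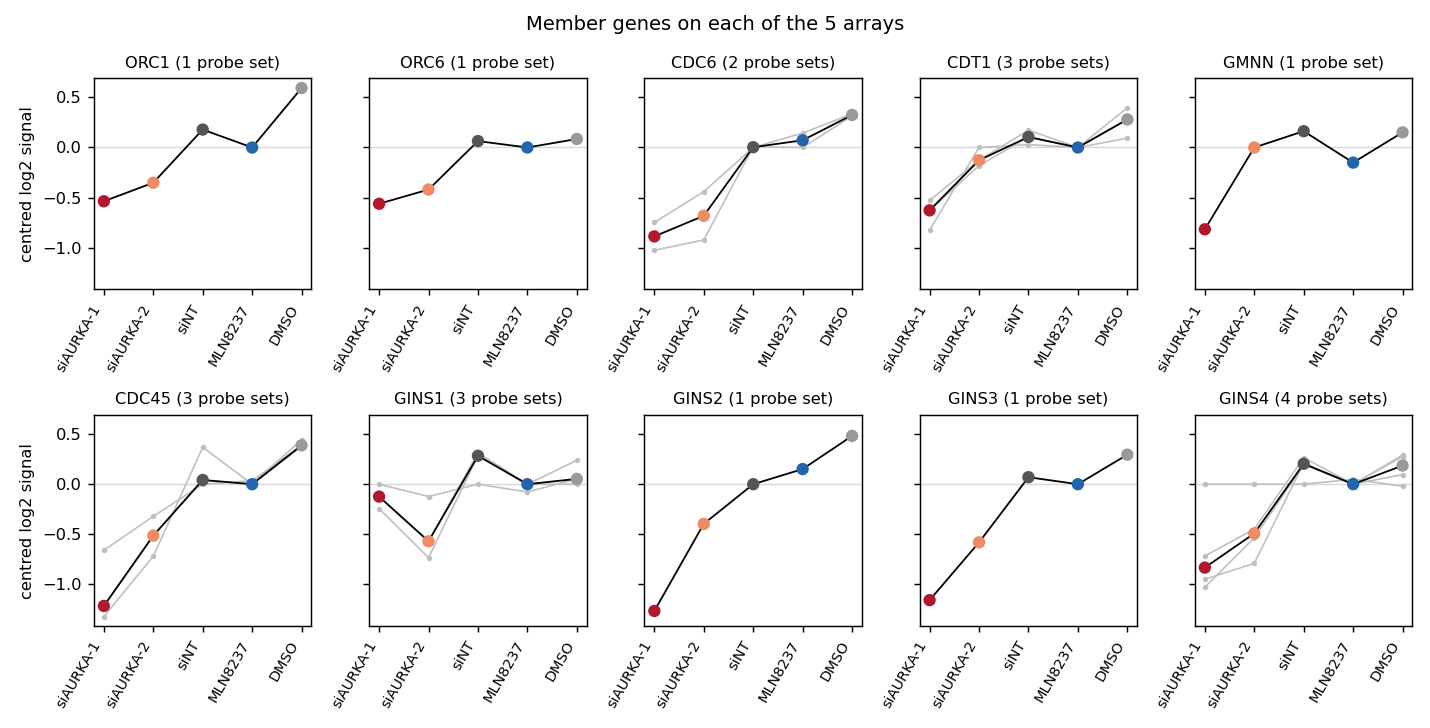
Centred log2 signal of each of the 10 genes (black line and coloured points) on the arrays siAURKA-1, siAURKA-2, siNT, MLN8237 and DMSO, with single probe sets in grey where a gene has several. siAURKA-1 is the lowest array for 9 genes and siAURKA-2 for GINS1, and DMSO is the highest for 7.

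Over the set, siAURKA-1 was the lowest of the 5 arrays for 9 genes, an order seen in 20.9% of all genes, and DMSO was the highest for 7, against 15.2% of all genes. Both siAURKA arrays lay below all 3 others for 9 genes, against 9.62% of all genes. The MLN8237 array was the middle one more often than any other: 14 of the 20 probe sets had their 0 on it, against 43.6% of all probe sets.

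Against siNT, all 10 genes were lower with siAURKA-1, where 42.2% of all genes were lower, with a median log2 difference of -0.94 against 0.00 over all genes. A difference of at least 1.5-fold was used for counting, and 9 of the 10 were lower by that much, against 4.48% of all genes, while 0 were higher by it, against 2.57%. At a smaller size of 0.32 log2 units 10 were lower, against 9.67% of all genes. At 2-fold there were 4 (GINS2, CDC45, GINS3 and GINS4), against 1.38% of all genes. GINS2 was 2.41-fold lower (-1.27), CDC45 2.39-fold (-1.26), GINS3 2.34-fold (-1.23) and GINS4 2.05-fold (-1.04). GMNN lay just short of 2-fold at 1.97-fold lower (-0.98). The licensing genes differed less, with CDC6 1.85-fold lower, CDT1 1.66-fold, ORC1 1.64-fold and ORC6 1.54-fold. GINS1, at 1.33-fold lower (-0.41), was the 1 gene short of 1.5-fold, and 7.34% of all genes lay further below siNT than it did. For GINS2 that share was 0.636%.

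With siAURKA-2 the 10 genes were again all below siNT, where 42.3% of all genes were lower, with a median of -0.54. Of these, 4 were at least 1.5-fold lower, against 3.11% of all genes: GINS1 at 1.81-fold (-0.85), GINS4 at 1.62-fold (-0.70), CDC6 at 1.61-fold (-0.68) and GINS3 at 1.57-fold (-0.65). None was higher by that size, against 1.96% of all genes, and none was 2-fold lower, against 0.872%. At 0.32 log2 units 8 were lower, against 8.16% of all genes. CDC45 and ORC1 came just under 1.5-fold, at 1.47-fold and 1.45-fold lower, and ORC6 was 1.40-fold lower. GINS2, the gene furthest below siNT with siAURKA-1, was 1.32-fold lower with siAURKA-2 (-0.40). CDT1 and GMNN, the licensing factor and its inhibitor, were nearest to siNT at -0.23 and -0.16, with 11.8% and 16.0% of all genes further below. Both siRNA comparisons share the siNT array, so their common direction is not independent evidence.

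**Figure D2:**
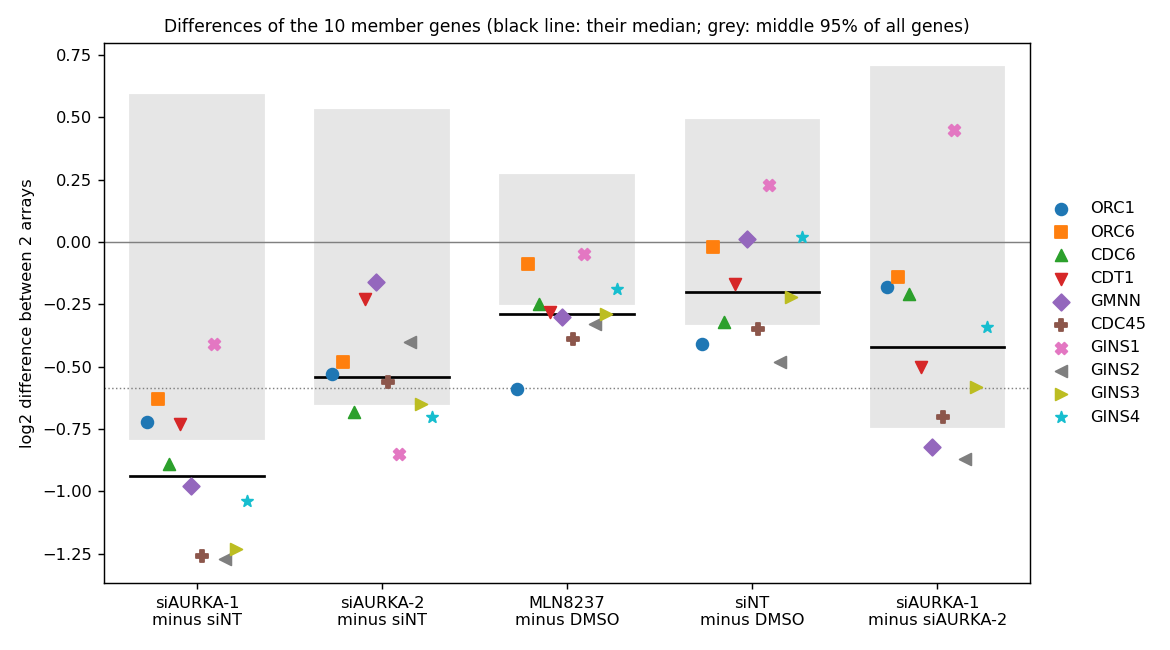
Log2 difference between the 2 arrays of each comparison for the 10 genes, the black line at their median, the grey band over the middle 95% of all genes and the dotted line at 1.5-fold lower. Medians are -0.94 for siAURKA-1 and -0.54 for siAURKA-2 (each minus siNT), -0.29 for MLN8237 minus DMSO, -0.20 for siNT minus DMSO and -0.42 between the siRNAs.

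Set directly against each other, the siRNA arrays differed by a median of -0.42 (siAURKA-1 minus siAURKA-2), with 9 genes lower with siAURKA-1, where 44.5% of all genes were. At 1.5-fold there were 3 lower, against 3.99% of all genes: GINS2 (-0.87), GMNN (-0.82) and CDC45 (-0.70). The 3 probe sets of CDC45 ranged from -0.70 to -0.34, and with the mean of probe sets 2 genes passed that size instead of 3. CDT1 (-0.50) and GINS3 (-0.58) were lower by less. At 2-fold there were 0, against 1.19% of all genes, and at 0.32 log2 units 6, against 9.18%. For ORC1 (-0.18), ORC6 (-0.14) and CDC6 (-0.21) the arrays lay closer, and 14.3% to 19.2% of all genes had lower differences than these 3. GINS1 differed in the other direction, 1.36-fold higher with siAURKA-1 (0.45), and all 3 of its probe sets had that sign (0.12 to 0.49). AURKA itself was lower with siAURKA-1 by 0.72 on the log2 scale.

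The kinase inhibitor was compared with its vehicle. All 10 genes were lower with MLN8237 than with DMSO, where 46.1% of all genes were lower. The median of the 10 was -0.29, nearer to 0 in log2 units than with either siRNA. The middle 95% of all genes ran from -0.25 to 0.27 for MLN8237 minus DMSO. It ran from -0.79 to 0.59 for siAURKA-1 minus siNT and from -0.65 to 0.53 for siAURKA-2 minus siNT. ORC1 was the 1 gene at least 1.5-fold lower, at 1.51-fold (-0.59), against 0.115% of all genes. CDC45 (-0.39), GINS2 (-0.33) and GMNN (-0.30) followed, with 0.543%, 0.998% and 1.41% of all genes further below DMSO. The shares were 1.51% for GINS3, 1.77% for CDT1, 2.4% for CDC6 and 5.3% for GINS4. At 2-fold there were 0, against 0.011% of all genes, and at 0.32 log2 units 3, against 1.16%. GINS1 (-0.05) and ORC6 (-0.09) were nearest to DMSO, with 26.7% and 18.1% of all genes further below.

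The controls also differed from each other. The siNT array, which received no inhibitor, was below DMSO for 7 of the 10 genes, with a median of -0.20, and 39.6% of all genes were lower there. GINS2 (-0.48), ORC1 (-0.41), CDC45 (-0.35) and CDC6 (-0.32) lay furthest below, and GINS1 was higher with siNT (0.23). None of the 10 reached 1.5-fold lower, against 0.554% of all genes, or 2-fold, against 0.0658%, and 4 were at least 0.32 log2 units lower, against 2.83%. Against siNT, MLN8237 gave a median of -0.09, with 8 genes lower, where 50.9% of all genes were lower, and 0 at 1.5-fold lower, against 0.965% of all genes. ORC1 was then -0.18, GINS2 0.15 and CDC6 0.07. GMNN (-0.31) and GINS1 (-0.28) were the furthest below siNT with MLN8237. For GMNN the difference was thus of like size against either control, whereas that of ORC1 was smaller against siNT. The MLN8237 and siNT comparisons share the DMSO array.

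The siRNA values also differed by control. Against DMSO, the median was -1.07 with siAURKA-1 and -0.78 with siAURKA-2. With siAURKA-1, 9 genes were at least 1.5-fold lower than DMSO, against 3.57% of all genes, and 6 were at least 2-fold lower, against 1.04%. GINS2 was then 3.36-fold lower (-1.75) and CDC45 3.04-fold (-1.60). With siAURKA-2, 7 genes were at least 1.5-fold lower than DMSO, against 2.55% of all genes. ORC1 (-0.95), CDC45 (-0.90) and GINS2 (-0.88) passed that size against DMSO and not against siNT. Against the mean of both controls, 9 genes passed 1.5-fold lower on the siAURKA-1 array (3.71% of all genes), 7 on siAURKA-2 (2.66%) and 0 on MLN8237 (0.17%). GINS1 lay nearer to DMSO than to siNT, at -0.18 with siAURKA-1 and -0.62 with siAURKA-2 against DMSO. GMNN was almost unmoved by the control, at -0.97 with siAURKA-1 and -0.15 with siAURKA-2.

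**Figure D3:**
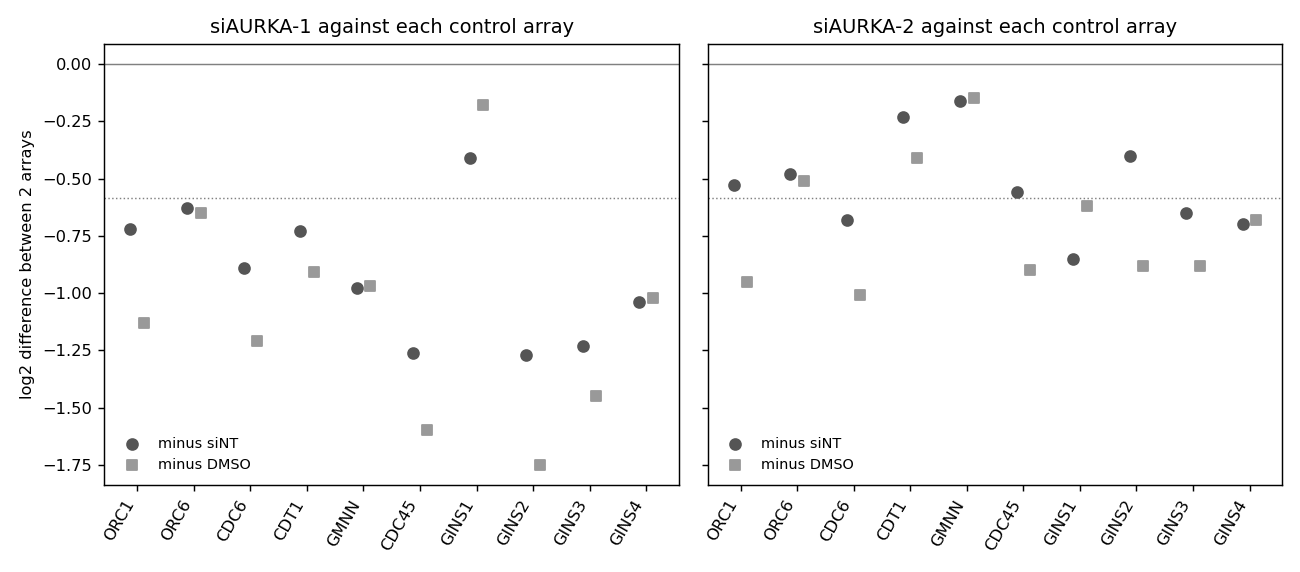
Log2 difference of each of the 10 genes with siAURKA-1 (left) and siAURKA-2 (right), against siNT (dark circles) and against DMSO (light squares), with the dotted line at 1.5-fold lower. ORC1, CDC6, CDT1, CDC45, GINS2 and GINS3 lie further below DMSO than below siNT. GINS1 lies nearer to DMSO, and ORC6, GMNN and GINS4 hardly differ by control.

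Probe sets of 1 gene gave a check of the readings, though not of the treatments. Of the 20 probe sets, 18 were lower with siAURKA-1 than with siNT, against 42.8% of all probe sets naming 1 gene, and 16 were at least 1.5-fold lower, against 5.65%. With siAURKA-2, 19 were lower than with siNT, against 43.7%, and 8 at least 1.5-fold lower, against 4.56%. None was higher in either comparison. The sizes varied within a gene: CDC45 ranged from -1.69 to -0.66 with siAURKA-1 and from -1.09 to -0.32 with siAURKA-2, and CDC6 from -1.03 to -0.75 with siAURKA-1 and from -0.93 to -0.44 with siAURKA-2. For CDT1 the range was narrow with siAURKA-1 (-0.85 to -0.70), and with siAURKA-2 it reached from -0.30 to -0.03. In GINS4, 3 of 4 probe sets lay between -1.23 and -0.98 with siAURKA-1, and the fourth stood at 0.00 with either siRNA. GINS1 likewise had 1 flat probe set, at 0.00 with siAURKA-1 and -0.12 with siAURKA-2, while the others gave -0.53 and -0.44 on the siAURKA-1 array and -1.02 and -0.88 on siAURKA-2. With MLN8237, 18 of the 20 were lower than DMSO, against 44.8% of all such probe sets, and 1 was higher, a GINS4 probe set at 0.07. With siNT, 14 were lower than with DMSO, against 38.8%, and 6 were higher, and probe sets of CDT1, GINS1 and GINS4 did not share a sign.

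Other genes of the same machinery were read from lists by role, none of which holds any of the 10. The 12 partners in origin recognition and licensing are the remaining ORC subunits, the MCM helicase genes and a binding protein of each. Their median was -0.48 with siAURKA-1, with 6 at least 1.5-fold lower, against 4.48% of all genes. With siAURKA-2 it was -0.20, with 3 at least 1.5-fold lower, against 3.11% of all genes. The lowest were the helicase subunit genes MCM7 (-0.89), MCM4 (-0.87) and MCM2 (-0.82) with siAURKA-1, and with siAURKA-2 MCM4 (-0.85), MCM2 (-0.81) and MCM7 (-0.77). The highest were ORC4 with siAURKA-1 (-0.03) and ORC3 with siAURKA-2 (0.11), so that within the complex ORC1 and ORC6 had lower differences than ORC2, ORC3, ORC4 and ORC5 with either siRNA. On the siAURKA-1 array ORC2 was at -0.26 and ORC5 at -0.36 relative to siNT, and on siAURKA-2 ORC2 was at -0.30 and ORC5 at -0.23.

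The median of the 17 origin firing genes was -0.49 with siAURKA-1, with 7 at least 1.5-fold lower, against 4.48% of all genes. With siAURKA-2 it was -0.19, with 3 at least 1.5-fold lower, against 3.11% of all genes. POLE2, a subunit of DNA polymerase epsilon (-1.66), WDHD1, which ties polymerase alpha to the helicase (-1.40), and MCM10, which helps to activate the helicase (-1.38), were lowest with siAURKA-1. DBF4, the activator of the CDC7 kinase (-1.06), DONSON, which helps to bring GINS to MCM (-0.88), and MCM10 (-0.59) were lowest with siAURKA-2. The highest were DBF4B with siAURKA-1 (0.00) and POLE4 with siAURKA-2 (0.36). With MLN8237 the median was -0.17 and none was 1.5-fold lower than DMSO, against 0.115% of all genes. The median of these firing genes was -0.18 for siNT minus DMSO and -0.01 for MLN8237 minus siNT.

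Among 16 regulators of CDT1, CDC6, geminin and S-phase entry the medians were nearer to 0, at -0.13 with siAURKA-1 and -0.04 with siAURKA-2. Relative to siNT, 6 of these genes passed 1.5-fold lower on the siAURKA-1 array (4.48% of all genes) and 3 on siAURKA-2 (3.11%). DTL, the receptor of the ubiquitin ligase that destroys CDT1 in S phase, was lowest with both (-1.47 with siAURKA-1, -1.23 with siAURKA-2). With siAURKA-1 the transcription factor gene E2F1 (-0.85) and CDK2, a kinase of S-phase entry (-0.79), followed, and E2F3 was highest (0.34). With siAURKA-2 SKP2, part of another ligase for CDT1 (-0.65), and RB1, the restrainer of E2F (-0.63), followed, and CUL4B was highest (0.16). RB1 read 0.46 on siNT and 0 on DMSO. Against DMSO, the siAURKA-2 difference was -0.17 for RB1, -0.46 for SKP2 and -1.41 for DTL. For the 20 mitotic genes the median was -0.45 with siAURKA-1, with 7 at least 1.5-fold lower, against 4.48% of all genes. With siAURKA-2 it was 0.02, with 0 at least 1.5-fold lower, against 3.11% of all genes. TOP2A, a topoisomerase (-1.36), the spindle gene HMMR (-1.13) and AURKB (-0.95) were lowest with siAURKA-1 and PLK1 highest (-0.04). On the siAURKA-2 array CENPF (-0.44), AURKB (-0.39) and PLK1 (-0.10) were lowest relative to siNT and CENPA highest (0.48). CENPF read 0.44 on siNT and 0 on siAURKA-2. Against DMSO, the siAURKA-2 difference was 0.10 for CENPF, -0.42 for AURKB and -0.10 for PLK1. With MLN8237 the median against DMSO was 0.15 for the mitotic genes, -0.01 for the regulators, -0.16 for the licensing partners and -0.29 for the 10 origin genes. Between siNT and DMSO the medians were 0.00, -0.07, -0.17 and -0.20 in the same order.

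**Figure D4:**
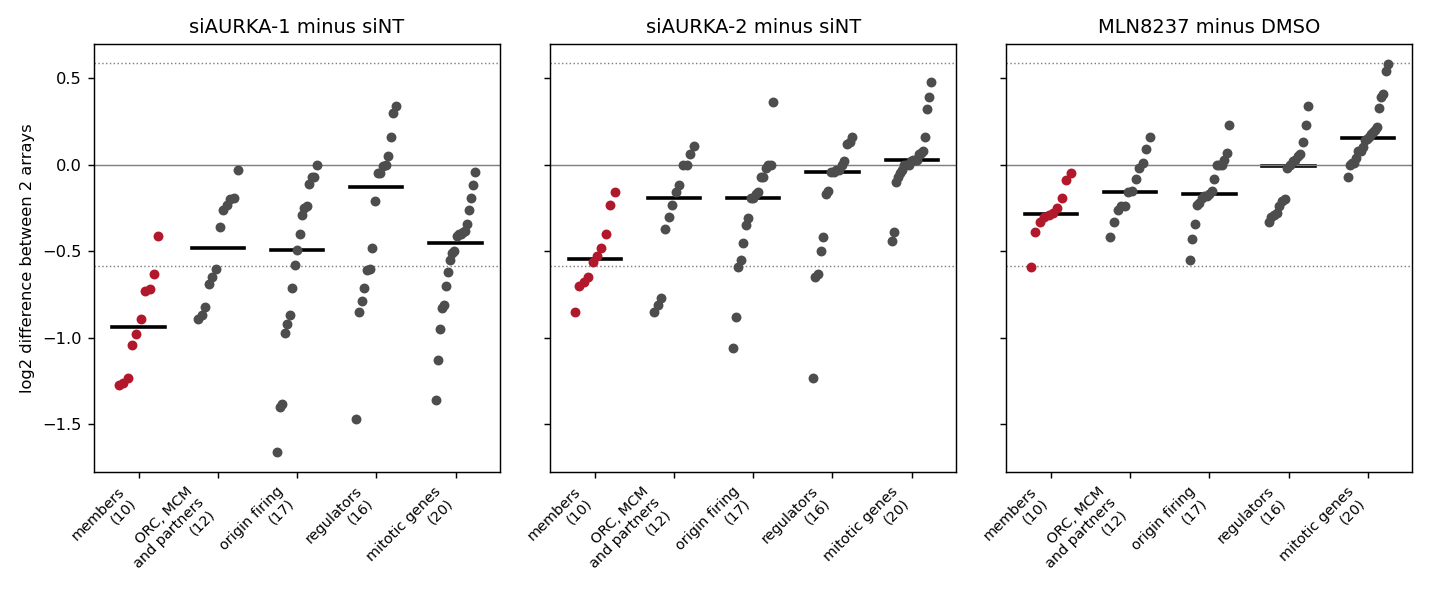
Log2 differences of single genes (points) for each AURKA siRNA minus siNT (left, middle) and for MLN8237 minus DMSO (right), of the 10 origin genes (red) and of 4 lists, with black lines at the medians and dotted lines at 1.5-fold. With siAURKA-2 the median of the origin genes is -0.54 and that of the mitotic genes 0.02.

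The genes whose course over the 5 arrays was nearest to the median course of the 10 were found by the root mean square difference, with each gene first centred on its mean over the arrays. The median course was -0.65 on the siAURKA-1 array, -0.28 on siAURKA-2, 0.27 on siNT, 0.18 on MLN8237 and 0.47 on DMSO. FANCI, of the Fanconi anaemia DNA repair pathway, was nearest, at a root mean square difference of 0.021 log2 units. IFRD2 (0.040), DSN1, a kinetochore gene (0.049), CDK2 (0.062), C19orf48P (0.062), LRR1, a receptor of the ligase that takes apart the helicase at the end of replication (0.065), MRM2, a mitochondrial ribosomal RNA methyltransferase gene (0.067), and the histone chaperone gene ASF1B (0.069) came next. Of the 10 themselves, GINS4 was nearest to their median course (0.071) and GINS1 furthest from it (0.329), with 9 and 1555 genes closer. These distances rest on 5 arrays.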

How the data were processed

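Total RNA of GFP-SAS cells was measured on Affymetrix GeneAtlas arrays, 1 array in each of 5 groups taken from the labelled treatment. The deposited table holds log2 signal that the authors made with RMA, per the submitters' processing notes; log base 2 was assumed, and the software is not stated there. As usually run, RMA corrects background, equalizes quantiles between arrays and summarises probes by median polish. The table is centred: the median over the arrays is 0 for all 49386 probe sets, which removes expression levels and any filter on dim probes, and ties at 0 on at least 2 arrays occur in 52.1% of probe sets. Of 45259 probe sets naming 1 gene, 45178 were matched by Entrez number to RefSeq symbols and the rest kept the listed symbol, and gene values and differences were computed with pandas 2.3.3, checked on simulated data. No probe set named one of the 10 genes among several. The dose of siNT was not used, since its label can be read in more than 1 way. Genes counted were those at least 1.5-fold apart. The 10 genes, the lists and the rule for naming genes (all 10; of each list the 3 lowest and the highest with each siRNA; the 8 nearest courses) were chosen with earlier results of these data known. Other genes named were chosen after their values were seen. Alternatives were other probe set summaries, centring, controls and sizes. The number of arrays limits precision.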

Additional observations from a re-analysis of the deposited data

How the results depend on the processing

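Of 62 recomputed values, 46 stayed close to those reported (a median within 0.1 log2 units, a count within 1.5 times) and 16 did not; none changed direction. The mean of probe sets and leaving out probe sets tied at 0 changed none beyond these bounds. Centring each array on its median could change nothing, as the medians of all 5 arrays were already 0. Adding probe sets that name several genes could change nothing either, as there were 0 such probe sets. The values of both settings are counted among the 46 and say nothing of stability. Against DMSO the median was -1.07 for siAURKA-1 and -0.78 for siAURKA-2, and against the mean of both controls it was -0.71 for siAURKA-2. In these settings 7 and 7 genes were at least 1.5-fold lower with siAURKA-2 instead of 4. For MLN8237 against siNT the median was -0.09, with 0 genes 1.5-fold lower, and 0 against the mean of both controls. At 2-fold the counts of lower genes were 4 (siAURKA-1), 0 (siAURKA-2), 0 (MLN8237) and 0 (between the siRNAs). At 0.32 log2 units, 8 were lower with siAURKA-2, 3 with MLN8237, 4 for siNT minus DMSO and 6 between the siRNAs. No paired analysis was possible because each group is 1 array, and no array could be left out for the same reason. Without expression levels, genes near background could not be told from genes that did not differ.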

Other observations

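CDC7 and DBF4, the catalytic and the activating subunit of the kinase that phosphorylates MCM to let CDC45 bind, stood out after the values were seen because they ran opposite ways. CDC7 read -0.92 on the siAURKA-1 array, 0.002 on siAURKA-2 and 0 on siNT, and 0 on MLN8237 against 0.18 on DMSO. DBF4 read 0 on the siAURKA-1 array, -0.99 on siAURKA-2 and 0.07 on siNT, and 0.13 on MLN8237 against -0.11 on DMSO. Thus CDC7 was low on the siAURKA-1 array alone and DBF4 on the siAURKA-2 array alone. SKP2, which like DBF4 and GINS1 was lower with siAURKA-2 than with siAURKA-1, read 0.18 on the siAURKA-1 array, -0.47 on siAURKA-2 and 0.17 on siNT. Direct differences (siAURKA-1 minus siAURKA-2) were -0.92 for CDC7, 0.99 for DBF4 and 0.65 for SKP2, against 0.45 for GINS1. Each rests on 1 array per siRNA.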
